A study of Mus musculus with 4 samples.

Results

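Mitotic kinase and proliferation marker transcripts were examined in muscle and heart of young mice lacking MG56 and of wild-type mice. They are 10 genes: the kinase genes Aurka, Plk1, Plk4, Nek2, Melk and Pbk, Cdc20 and Cdca3, which act through ubiquitin ligases, and the marker genes Mki67 and Top2a. They were chosen by symbol, with earlier results of these data known. Every probe set of the array annotated to a symbol of the 10 alone was taken. This gave 22 probe sets of the 34945 with 1 gene symbol, or 10 of 18193 genes. RNA came from the tibialis anterior (TA, a shin muscle made mostly of fast fibres) and from the heart of C57BL/6J mice at postnatal day 9, either MG56 knockouts or wild types. MG56 is an alternative name of Hhatl, whose protein sits in the membranes of the muscle cell's reticulum. RNA of 3 knockout mice was mixed, and RNA of wild-type mice was mixed likewise, from a number of mice that the sources used here leave unstated. The 4 groups, knockout and wild type in each tissue, have 1 array of pooled RNA each and no replicate, so no error or p-value can be given, and each ratio compares pools and not populations of mice.

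Cells that divide switch on a shared set of genes late in the cycle. Aurora kinase A (Aurka) and polo-like kinase 1 (Plk1) build the spindle poles and drive entry into mitosis, Plk4 starts centriole duplication, and Nek2 lets the centrosomes part. Melk and Pbk encode kinases that are abundant in dividing cells. Cdc20 activates the anaphase-promoting complex, the ubiquitin ligase that ends mitosis, and Cdca3 takes part in the degradation of the Wee1 kinase, which opposes mitotic entry. Mki67 encodes the Ki-67 protein, which coats mitotic chromosomes and marks cycling cells, and Top2a encodes the topoisomerase that untangles sister DNA molecules. In the first weeks after birth satellite cells still divide in skeletal muscle, while heart muscle cells leave the cycle and other cells of the heart go on dividing.

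Many promoters of such genes hold a cell cycle genes homology region (CHR), read by MuvB complexes, and CCAAT boxes, bound by NF-Y. RefSeq promoter windows of build GRCm38.p6, from 250 bases before to 50 after the start of the gene, were matched for 9 of the 10 genes. Of these genes, 5 were picked by their ratios or probe sets and not by sequence. Melk had the largest knockout deficit of the 10 in both tissues, and Cdca3 the next largest in heart. Cdc20 had probe sets that differ in TA, Plk1 differed most between the tissues and Plk4 had the smallest deficit in heart. The promoters of these 5 are printed here. They read 5′ to 3′ along the gene, and capitals mark TTTGAA or TTTAAA (the CHR forms searched) and CCAAT, each on either strand (TTCAAA and ATTGG on the other strand).
Melk promoter, GRCm38.p6, chr4:44300667-44300966, plus strand: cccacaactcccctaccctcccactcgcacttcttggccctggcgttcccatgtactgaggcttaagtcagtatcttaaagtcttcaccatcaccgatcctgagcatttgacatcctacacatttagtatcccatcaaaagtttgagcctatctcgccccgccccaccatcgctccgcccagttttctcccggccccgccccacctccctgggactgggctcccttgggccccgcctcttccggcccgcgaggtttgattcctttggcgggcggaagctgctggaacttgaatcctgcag
Cdca3 promoter, GRCm38.p6, chr6:124829926-124830225, plus strand: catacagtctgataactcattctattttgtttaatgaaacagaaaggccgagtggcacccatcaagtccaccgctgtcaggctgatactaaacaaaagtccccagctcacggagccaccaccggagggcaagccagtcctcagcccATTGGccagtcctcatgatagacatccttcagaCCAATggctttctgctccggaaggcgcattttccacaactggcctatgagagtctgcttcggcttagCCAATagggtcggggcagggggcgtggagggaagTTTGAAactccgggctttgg
Cdc20 promoter, GRCm38.p6, chr4:118437294-118437593, minus strand: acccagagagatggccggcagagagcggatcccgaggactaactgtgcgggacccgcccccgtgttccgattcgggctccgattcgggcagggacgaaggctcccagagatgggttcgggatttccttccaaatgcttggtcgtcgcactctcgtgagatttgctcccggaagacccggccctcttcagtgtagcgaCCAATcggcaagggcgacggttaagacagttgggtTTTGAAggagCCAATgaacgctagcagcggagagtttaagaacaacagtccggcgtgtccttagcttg
Plk1 promoter, GRCm38.p6, chr7:122159185-122159484, plus strand: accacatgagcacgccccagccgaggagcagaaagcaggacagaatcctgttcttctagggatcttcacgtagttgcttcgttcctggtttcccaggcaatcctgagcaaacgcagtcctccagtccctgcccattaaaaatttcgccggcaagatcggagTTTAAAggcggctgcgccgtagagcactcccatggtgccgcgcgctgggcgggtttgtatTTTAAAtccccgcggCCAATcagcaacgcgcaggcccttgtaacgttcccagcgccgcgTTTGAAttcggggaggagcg
Plk4 promoter, GRCm38.p6, chr3:40799701-40800000, plus strand: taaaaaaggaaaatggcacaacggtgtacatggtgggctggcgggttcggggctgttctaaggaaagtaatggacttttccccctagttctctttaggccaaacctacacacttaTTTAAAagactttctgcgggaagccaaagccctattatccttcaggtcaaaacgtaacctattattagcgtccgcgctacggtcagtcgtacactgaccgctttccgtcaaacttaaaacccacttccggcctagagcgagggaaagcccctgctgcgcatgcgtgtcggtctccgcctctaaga

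The Cdca3 window holds TTTGAA from base 31 after the start and 3 CCAAT boxes, the nearest at base -4. In Cdc20 the CHR form lies at base -18, between CCAAT boxes at bases -53 and -8. Plk1 has TTTAAA at bases -89 and -29, CCAAT at base -14 and TTTGAA at base 31. Plk4 has TTTAAA at base -135 alone, and neither motif is in the Melk window. Over the 9 windows, 7 held a CHR form, against 27.6% of all 32851 promoter windows of the same length, and 7 held CCAAT, against 37.4%. Both motifs stood together in 6 windows (Aurka, Cdc20, Cdca3, Mki67, Plk1 and Top2a), against 10.7% of all. Matches of different motifs did not overlap in any of the 9 windows. A match of letters is a description and not a binding site, and a link between the motifs and the deficits was not tested.

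Signals are on a linear scale, as made with MAS5, and are compared only between arrays for the same probe set, because probe sets differ in brightness for reasons other than the amount of RNA. Signals below 101.3, the median over all arrays, were raised to that floor. A gene counted as measured where 1 array or more of the comparison reached the floor, and the probe set with the highest mean over the 4 arrays stood for a gene. The 4 arrays had trimmed means between 496.4 and 496.8, and between 49.5% and 50.7% of their 45037 probe sets reached the floor. Hhatl, the targeted gene, had a signal of 1078.4 in knockout and 5491.4 in wild-type TA (5.09-fold lower), and of 879.8 and 2109.5 in heart (2.40-fold lower). Its probe set may lie outside the deleted part, and what remains of the signal does not check the allele. TA carried all 12 skeletal fibre markers above the floor, and heart all 10 heart muscle markers. Some markers of the other tissue were above it too. Of the heart muscle markers, 4 were under the floor in knockout TA and 5 in wild-type TA, where Actc1 gave 40998.9. Of the skeletal fibre markers, 8 were under the floor in knockout heart and 9 in wild-type heart, where Ckm gave 20634.7.

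All 10 genes were lower in the knockout than in the wild-type pool, in TA and in heart. In TA, 9 of the 10 were at least 1.5-fold lower, where 4.44% of the 11528 genes measured were. The same 9 were at least 2-fold lower, against 0.92%, with Plk4 at the cutoff (log2 ratio -1.002). In heart, 10 of 10 were at least 1.5-fold lower, against 4.18% of 11452 genes, and 9 at least 2-fold, against 1.2%. Because the 10 were chosen with earlier results of these data known, the shares over all genes are a description and not a test. The median log2 ratio of knockout to wild type over the 10 was -1.17 in TA and -1.44 in heart, while that of all genes was -0.01 and -0.002. The central 95% of all genes lay between -0.73 and 0.72 in TA and between -0.71 and 0.59 in heart. Without replicates it is not known how much of this spread is noise. Plk1 in TA was the only value of the 10 genes inside these ranges. In whole tissue, fewer dividing cells and less RNA per cell cannot be told apart.

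**Figure D1:**
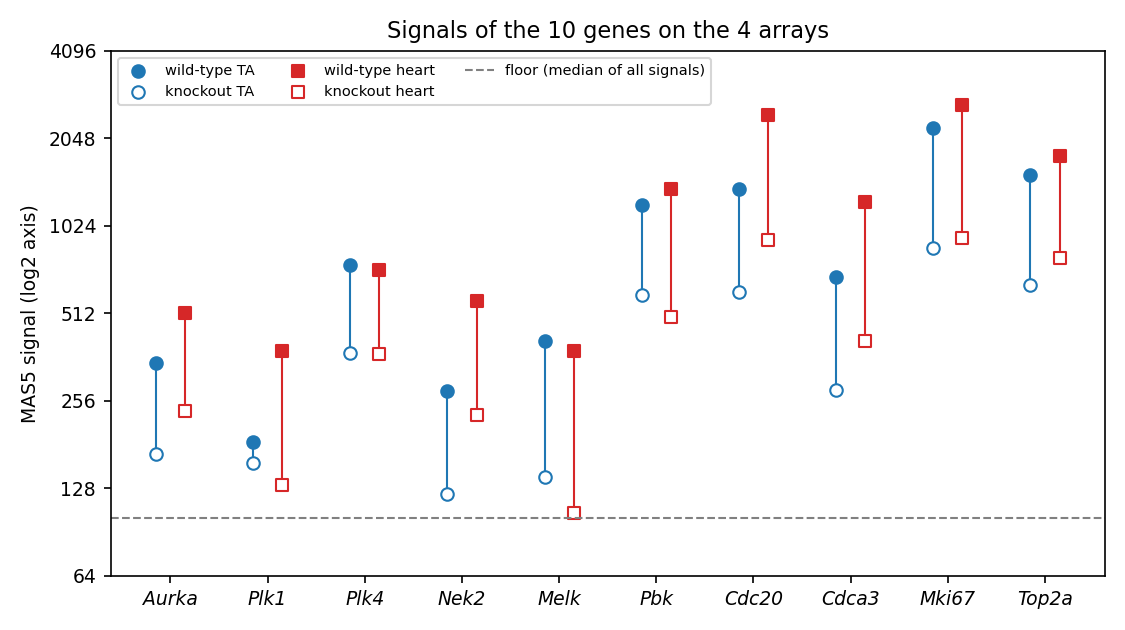
MAS5 signal (vertical log2 axis) of the probe set that stands for each of the 10 genes, with wild-type pools filled, knockout pools open, TA as circles and heart as squares; a line joins the pools of a tissue and the dashed line is the floor of 101.3. Every open symbol lies under the filled one of its tissue, and the gap is smallest for Plk1 in TA, at 156.8 against 185.0.

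Among the spindle and centrosome kinases, the signal of Aurka was 167.3 in knockout TA, 344.6 in wild-type TA, 236.0 in knockout heart and 511.8 in wild-type heart. The knockout pool was thus 2.06-fold lower in TA and 2.17-fold lower in heart, a nearly equal deficit. Heart was the brighter tissue in both genotypes. A second Aurka probe set was under the floor on all 4 arrays.

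Plk1 gave 156.8 in knockout TA, 185.0 in wild-type TA, 131.4 in knockout heart and 379.6 in wild-type heart. The knockout pool was 1.18-fold lower in TA and 2.89-fold lower in heart, log2 ratios of -0.24 and -1.53. Of the 4 pools, wild-type heart stood apart, and the other 3 lay close together near the floor. The gene has 1 probe set, so no other measures it.

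Plk4, on the probe set that stands for it, had signals of 374.3 in knockout TA, 749.7 in wild-type TA, 369.9 in knockout heart and 723.0 in wild-type heart. The deficit was 2-fold in TA and 1.95-fold in heart, and the pools of a genotype were alike in both tissues. A second probe set was 1.89-fold lower in TA and 2-fold in heart. The dimmest set, made from the same source sequence as the second, was at least 1.27-fold and at least 1.45-fold lower, with its knockout signals under the floor.

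Nek2 had signals of 122.4 in knockout TA, 275.8 in wild-type TA, 228.7 in knockout heart and 564.2 in wild-type heart, 2.25-fold and 2.47-fold lower in the knockout pools. Each heart pool was brighter than the TA pool of its genotype. On a second probe set, with 78.4, 137.2, 130.4 and 375.8 in the same order, the deficit was at least 1.35-fold in TA and 2.88-fold in heart. The remaining 2 sets of Nek2 were under the floor on every array.

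Melk, whose product is a kinase of the AMPK-related family, had the largest deficits of the 10. Its signal was 139.9 in knockout TA, 412.1 in wild-type TA, 105.1 in knockout heart and 379.6 in wild-type heart. The knockout pools were 2.95-fold and 3.61-fold lower, which left 33.9% and 27.7% of the wild-type signal. The knockout heart value is close to the floor, and the wild-type pools were nearly alike.

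Pbk, which encodes the mitotic kinase also called TOPK, gave 592.4 in knockout TA, 1209.9 in wild-type TA, 498.2 in knockout heart and 1365.6 in wild-type heart. It was 2.04-fold lower in knockout TA and 2.74-fold lower in knockout heart. Wild-type heart was the brightest pool and knockout heart the dimmest.

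Of the genes that act through ubiquitin ligases, Cdc20 had signals of 607.1 in knockout TA, 1373.0 in wild-type TA, 911.3 in knockout heart and 2459.6 in wild-type heart. The knockout pools were 2.26-fold and 2.70-fold lower. That probe set is of a kind (suffix _x_) that can match other transcripts. A second set without that suffix gave 511.7, 756.8, 520.9 and 1134.8 in the same order. It was 1.48-fold lower in TA and 2.18-fold in heart, so in TA Cdc20 passes 1.5-fold on 1 of its 2 measured sets. The sets that stand for Plk4, Nek2 and Pbk have the suffix _s_, and those of Cdca3 and Top2a the suffix _a_. Whether these match other transcripts was not checked, and Pbk has no other set. Counts without sets of these suffixes are given with the alternatives below.

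Cdca3 gave 278.5 in knockout TA, 680.6 in wild-type TA, 410.9 in knockout heart and 1236.2 in wild-type heart. The deficits of 2.44-fold and 3.01-fold left 40.9% and 33.2% of the wild-type signal. Its other 2 probe sets were under the floor on all arrays.

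Of the proliferation markers, Mki67 had signals of 860.5 in knockout TA, 2219.2 in wild-type TA, 928.9 in knockout heart and 2668.9 in wild-type heart. It was 2.58-fold lower in knockout TA and 2.87-fold lower in knockout heart. Within a genotype its heart pool was the brighter, by 1.20-fold in wild type and 1.08-fold in the knockout.

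Top2a gave 641.6 in knockout TA, 1524.9 in wild-type TA, 794.6 in knockout heart and 1783.6 in wild-type heart, 2.38-fold and 2.24-fold lower. It was, with Plk4, 1 of the 2 genes whose deficit was not larger in heart. A second set was at least 2.01-fold lower in TA and 1.72-fold lower in heart, and the last was under the floor on every array.

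Of the 22 probe sets, 15 were measured and 7 were under the floor on all 4 arrays. All 15 were lower in the knockout pool in TA and all 15 in heart, with 11 and 14 of them at least 1.5-fold lower. Only 4 genes (Plk4, Nek2, Cdc20 and Top2a) had more than 1 measured set, and their sets differed in the size of the deficit while pointing the same way.

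**Figure D2:**
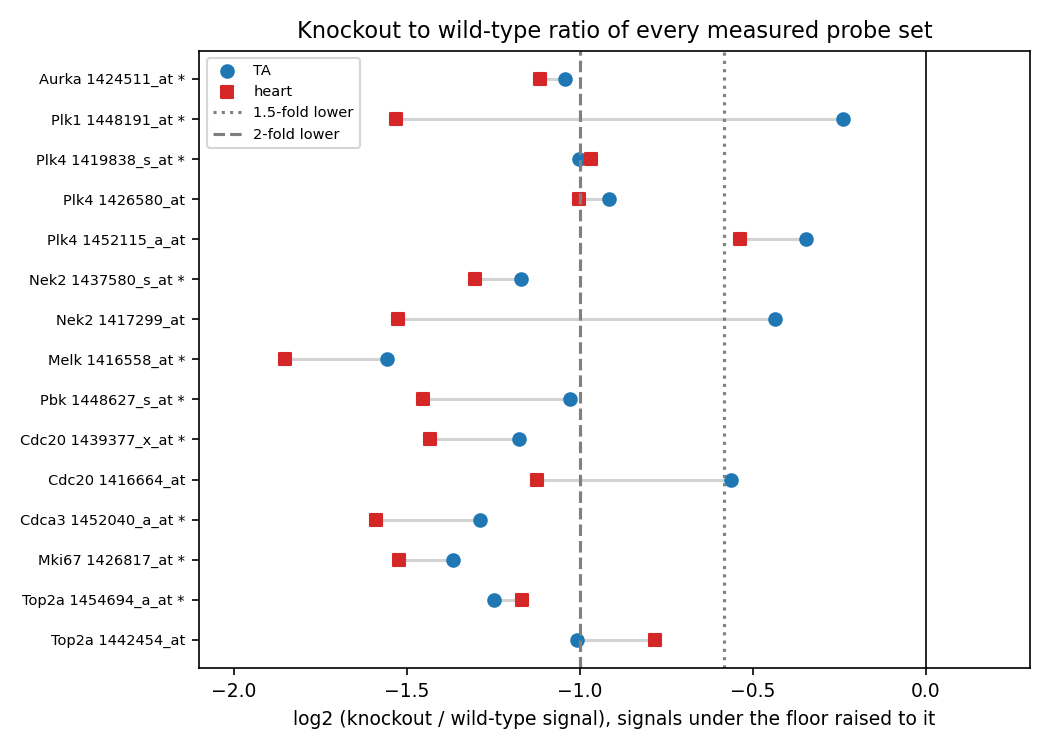
The log2 ratio of knockout to wild-type signal (horizontal axis) of the 15 measured probe sets, in TA (circles) and heart (squares), with a star at the set that stands for its gene and vertical lines at 1.5-fold and 2-fold lower. All points lie below 0, from -1.85 for Melk in heart to -0.24 for Plk1 in TA.

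The difference between the tissues, as log2 ratio in TA minus log2 ratio in heart, had a median of 0.21 over the 10 genes and of 0.0002 over the 10802 genes measured in both. The log2 ratio was lower in heart for 8 of the 10, against 5405 of the 10802 genes (50%). Only Plk1, 1 of the 10, differed by at least 1.5-fold between the tissues, a share close to the 11.5% of all genes that did so in either direction. It had a difference of 1.29, and its wild-type TA signal of 185.0 was itself near the floor. For the others the difference ran from -0.08 for Top2a to 0.42 for Pbk. The second set of Cdc20 gave 0.56, and that of Nek2 at most 1.09, since its knockout TA signal was under the floor. With 1 pool for each group, no test of these differences is possible.

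In the wild-type pools, TA and heart differed less at the median than the genotypes did, though Plk1 differed more than its genotypes in TA. Of the 10 genes, 8 were lower in TA than in heart and 2, Melk and Plk4, were higher by 1.09-fold and 1.04-fold. The direction depends on the probe set for Plk4, whose other measured sets were 1.27-fold and 1.14-fold lower in TA, and for Top2a, whose second set was 1.09-fold higher. At 1.5-fold, 4 of the 10 were lower in TA, where 18.0% of the 11872 genes measured were, and at 2-fold 2 of the 10, against 7.8%. None of the 10 was 1.5-fold higher in TA, where 14.5% of all genes were. Plk1 and Nek2 were both 2.05-fold lower in TA, Cdca3 1.82-fold and Cdc20 1.79-fold. Aurka, at 1.49-fold lower, lay just short of the threshold. Mki67, Top2a and Pbk were 1.20-fold, 1.17-fold and 1.13-fold lower. The median log2 ratio of TA to heart was -0.42, against -0.07 for all genes. These ratios use the same wild-type arrays as the knockout comparisons, so the sets of ratios are not independent. Between the tissues of the knockout pools, the median log2 ratio of TA to heart over the 10 genes was -0.21, with 6 genes lower and 4 higher in TA, and 2 of the 10 were at least 1.5-fold lower, where 18.5% of the 11833 genes measured were. Nek2 was 1.87-fold and Cdc20 1.5-fold lower in TA than in heart, and Melk was 1.33-fold, Plk1 1.19-fold and Pbk 1.19-fold higher.

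**Figure D3:**
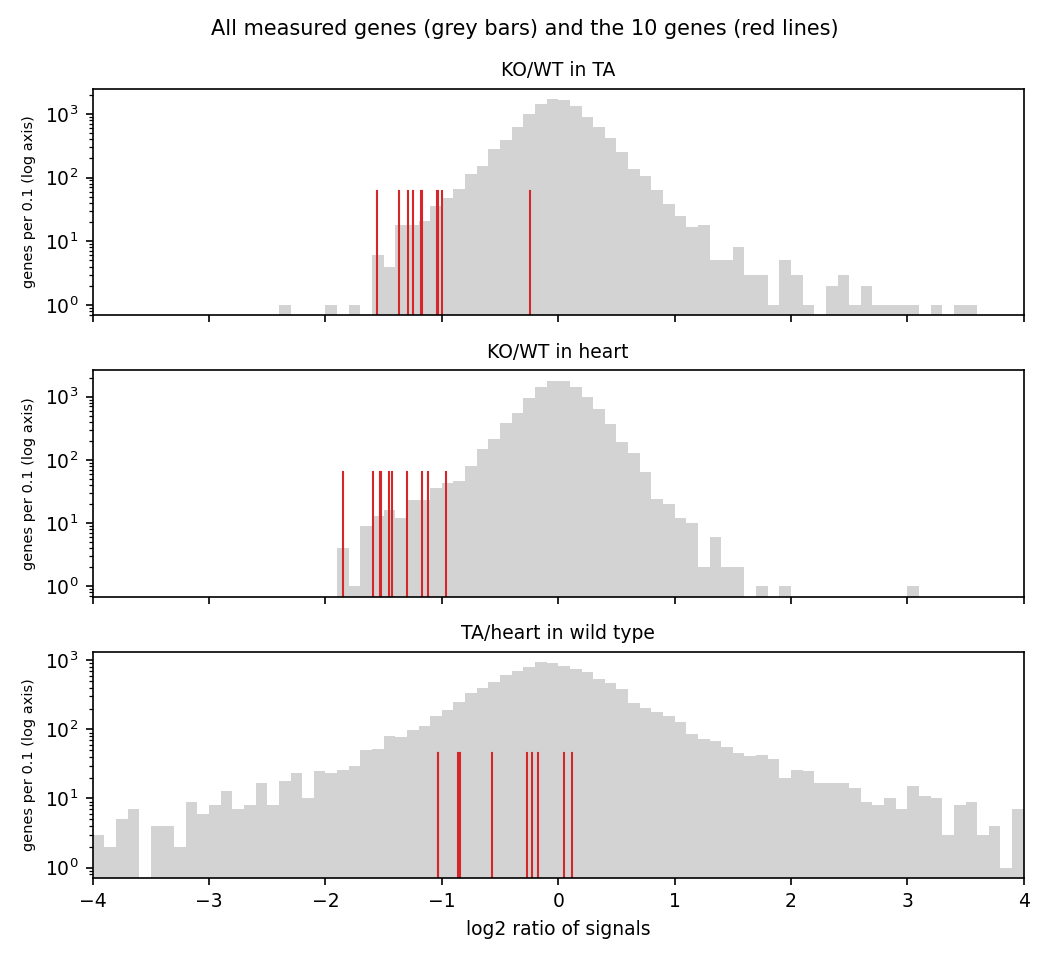
Number of measured genes (log axis) by log2 ratio in steps of 0.1 (grey bars), for knockout over wild type in TA and in heart and for TA over heart in wild type, with red lines at the 10 genes; genes beyond 4 either way are not drawn. The red lines lie at the low edge of the knockout comparisons, except Plk1 in TA, and within the bulk of the tissue comparison.

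The other genes of mitosis were described from lists of known function. Each listed gene was read only from the probe set that stood for it, some of them with the suffix _x_, _s_ or _a_. The list counts stand against shares over all genes of 4.44% in TA and 4.18% in heart at least 1.5-fold lower, and 4.19% and 2.67% higher. A count of 0 or 1 in a short list does not stand apart from these shares. Of the activators and partners of the mitotic kinases, 13 of 17 measured were at least 1.5-fold lower in knockout TA and 15 of 18 in knockout heart, and 0 were higher in either. Their median log2 ratios were -0.95 and -1.07. Aurkb, the kinase of the chromosomal passenger complex, was 3.01-fold lower in TA and 2.22-fold in heart, and its partners Birc5 and Cdca8 were 2.08-fold and 2.47-fold lower in TA and 3.04-fold and 2.89-fold in heart. The checkpoint kinase gene Bub1 was 2.95-fold and 3.09-fold lower. Tpx2 and Bora, whose products activate Aurora A, were 1.82-fold and 2.55-fold lower in TA and 2.70-fold and 1.96-fold in heart. Wee1, the kinase gene that opposes mitotic entry, was 1.23-fold and 1.29-fold lower.

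Relatives of the same kinases and topoisomerases outside the 10 were set beside them, some of which, such as Nek6, Nek7 and Nek9, also act in mitosis. Of 14 measured in TA, 0 were 1.5-fold apart in either direction (median 0.01), where 4.44% of all genes were lower and 4.19% higher. Of 14 in heart, 0 were lower and 1, Top3b, was 1.60-fold higher (median 0.08), where 4.18% and 2.67% of all genes were. In a list of 14 these counts lie close to the shares of all genes. Plk2, a polo-like kinase of stress responses, had signals of 1599.3 in knockout TA and 1560.4 in wild-type TA, and of 2253.5 and 2424.7 in heart. Top2b, the topoisomerase II gene that dividing and non-dividing cells both use, gave 3903.2 and 4101.0 in TA and 4514.7 and 4457.6 in heart.

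The centriole and centrosome list, the structures on which Plk4 and Nek2 act, had 0 of 12 at least 1.5-fold lower in TA (median -0.01) and 2 of 11 in heart (median -0.17). The 2 were Stil, at least 2.41-fold lower, and Sass6, 1.77-fold lower, which encode partners of Plk4 in the birth of a centriole. In TA they were at least 1.38-fold and 1.41-fold lower. Pcnt, a scaffold gene of the centrosome, was 1.32-fold higher in TA and 1.27-fold higher in heart, under the threshold.

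For the anaphase-promoting complex that Cdc20 activates, the core subunits stayed within 1.5-fold in both tissues, and the list as a whole had 4 of 23 lower in TA (median -0.18) and 5 of 23 in heart (median -0.12), with 0 higher. Ube2c, the ubiquitin-conjugating enzyme gene of the complex, was 2.36-fold lower in TA and 2.86-fold in heart. Fbxo5, which encodes the inhibitor Emi1, was 2.57-fold and 2.73-fold lower, Mad2l1, whose product restrains Cdc20 at the spindle checkpoint, 2.30-fold and 1.98-fold, and Gmnn, which encodes the replication inhibitor geminin, 1.89-fold and 1.51-fold. The fifth in heart was the separase gene Espl1, at 1.57-fold. The SCF ubiquitin ligase list had 1 of 6 lower in TA, Cks2 at 1.91-fold, and 2 of 7 in heart, Cks2 at 2.51-fold and Skp2 at 1.95-fold (medians -0.26 and -0.12).

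Condensin and chromosome periphery genes, which act on the same chromosomes as Top2a and Ki-67, had 5 of 11 lower in TA (median -0.58) and 6 of 11 in heart (median -0.61). Smc2, a core condensin subunit gene, was 2.15-fold and 2.07-fold lower, the condensin gene Ncapg at least 2.15-fold and at least 1.96-fold, and the chromokinesin gene Kif4 1.52-fold and 2.25-fold. Ncaph2 was 1.10-fold and 1.05-fold higher, and Nifk, which encodes a partner of Ki-67, 1.02-fold and 1.06-fold lower.

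The transcription factors that act on CHR elements, CCAAT boxes and E2F sites were counted next. Of 19 measured, 2 were at least 1.5-fold lower in TA, E2f7 at 2.11-fold and Rbl1 at 1.67-fold (median -0.21). In heart 6 of 19 were lower (median -0.25), among them E2f7 at 2.78-fold, E2f8 and Foxm1 both at 1.93-fold and Rbl1 at 1.79-fold. Foxm1, the forkhead activator of late cell cycle genes, was 1.35-fold lower in TA, and Mybl2 was under the floor on all 4 arrays. The NF-Y genes Nfya, Nfyb and Nfyc were 1.12-fold, 1.45-fold and 1.25-fold lower in TA, while in heart Nfya and Nfyb were 1.07-fold and 1.17-fold lower and Nfyc 1.09-fold higher.

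S phase genes had 7 of 16 lower and 1 higher in TA (median -0.53) and 11 of 16 lower and 0 higher in heart (median -0.78). Mcm5, a subunit gene of the replicative helicase, was 2.21-fold and 2.25-fold lower and the ribonucleotide reductase gene Rrm2 2.10-fold and 2.45-fold. The higher gene in TA was Mcm2, at 1.52-fold, just past the threshold and on a probe set with the suffix _s_. Among 6 measured inhibitors of cyclin-dependent kinases, 2 were lower in each tissue: Cdkn2c at 1.65-fold and 1.74-fold, and Cdkn3, a phosphatase gene, at least 1.77-fold in TA and 2.01-fold in heart. Cdkn1a, which encodes the p21 inhibitor, had signals of 2707.7 in knockout and 1166.7 in wild-type TA (2.32-fold higher), against 856.4 and 937.6 in heart (1.09-fold lower). It was the only 1 of the 6 at 1.5-fold higher in TA, where 4.19% of all genes were, and 0 of the 6 were in heart.

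**Figure D4:**
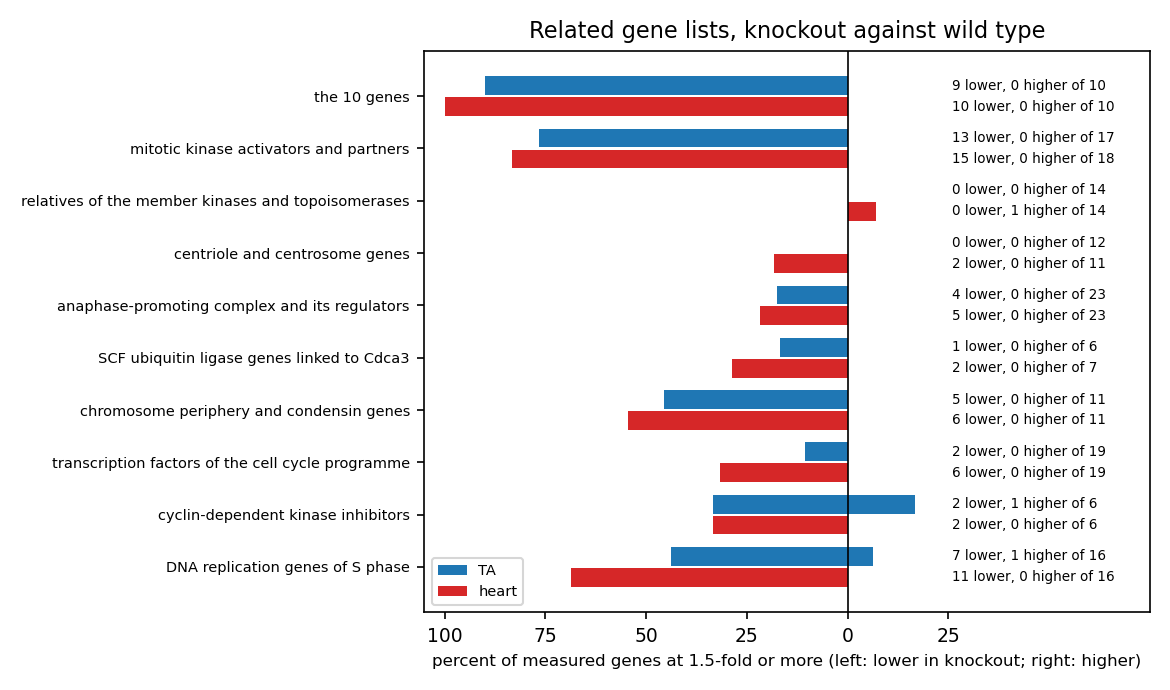
Percent of measured genes of each list at 1.5-fold or more lower (bars to the left) or higher (bars to the right) in the knockout pool, in TA and heart, with the counts printed beside them. The kinase partners stand next to the 10 genes, at 13 of 17 and 15 of 18. The relatives of the same kinases and topoisomerases have 0 lower in both tissues, where 4.44% of all genes in TA and 4.18% in heart were.

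The genes whose pattern over the 4 arrays was most like the mean of the 10 were found by the distance between log2 signals centred on each gene's own mean, among 10151 other genes at or above the floor on all 4 arrays. The nearest was Kdsr (distance 0.06), a sphingolipid synthesis gene, with 207.7 in knockout TA, 466.0 in wild-type TA, 239.6 in knockout heart and 660.3 in wild-type heart. Of the other 2 probe sets of Kdsr, one gave 192.0, 161.5, 210.4 and 181.5 in the same order, higher in the knockout in both tissues. The other gave 155.7, 96.2, 126.0 and 178.4, higher in knockout TA and lower in knockout heart. Fignl1 (0.09), a gene of recombination repair, Clspn (0.12), a replication checkpoint gene, Shcbp1 (0.12) and Incenp (0.13), a partner gene of Aurora B, came next. Of the 10 genes themselves Top2a lay nearest to their mean (0.20) and Melk farthest (0.76). A likeness over 4 arrays rests on 4 numbers for each gene.

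Markers of cell types that could hold the dividing cells were compared between the genotypes. Over all genes measured, 4.44% in TA and 4.18% in heart were at least 1.5-fold lower, and 4.19% and 2.67% higher. In lists this short, a count of 0 is close to those shares. In TA, 0 of 8 satellite cell and myoblast markers, 0 of 7 fibroblast, 0 of 7 endothelial and 0 of 5 leukocyte markers were 1.5-fold lower or higher, with median log2 ratios of -0.12, -0.12, 0.08 and 0.09. Their summed signals in knockout and wild-type TA were 10954 and 9997, 118402 and 131062, 8448 and 8696, and 9369 and 8868. The first sum is higher in the knockout mostly through the bright Myog (4902.1 against 3825.3), with Itga7 and Sdc4 1.29-fold and 1.20-fold higher. The rest of that list, Pax7, Vcam1, Cdh15, Myod1 and Myf5, were 1.25-fold, 1.43-fold, 1.33-fold, 1.16-fold and 1.02-fold lower. In heart the fibroblast, endothelial and leukocyte lists had 0 of 8, 0 of 7 and 0 of 5 past 1.5-fold (medians -0.07, 0.08 and 0.06), with sums of 92797 and 96028, 14877 and 14475, and 6122 and 5968. The heart pools had Pax7, Myf5, Myod1 and Myog below the floor. Of the red blood cell list, 1 of 2 measured genes in TA and 0 of 3 in heart were 1.5-fold lower: Tfrc, the transferrin receptor gene that other cells also use, at 1.51-fold in TA and 1.35-fold in heart, with Hba-a1 under the floor. The skeletal fibre list had 1 of 12 lower in TA, Myh2 at 1.51-fold, and the heart muscle list 0 of 10 in heart. Satellite cell markers in heart had 1 of 4 higher, Sdc4 at 1.62-fold, adipocyte markers 0 of 2 in TA and 1 of 2 lower in heart, Ucp1 at least 3.24-fold, and Schwann cell markers 0 of 3 and 0 of 2 past the threshold. The pools also differed in sex-linked transcripts. Of the Y-linked genes, Uty was 2.71-fold higher in knockout TA and 2.29-fold in knockout heart, Eif2s3y 1.78-fold and 2.21-fold, and Kdm5d 1.57-fold and 1.64-fold, while 2.67% of all genes in heart were 1.5-fold higher. Xist was 1.44-fold and 1.30-fold lower. The part of these differences in the cell division result was not tested.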

How the data were processed

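Total RNA of pooled mice was labelled and hybridised to Affymetrix mouse arrays, 1 for each of 4 groups. The deposited values are signal intensities, 1 per probe set on a linear scale, made by the authors with MAS5 per the submitters' processing notes. The sources used here give no MAS5 version, scaling target or detection call. MAS5 corrects background and scales each array as a whole. The platform's annotation gave 1 symbol to 34945 of 45037 probe sets, which were used, several to 932 and none to 9160. By gene identifier 34741 matched RefSeq (GRCm38.p6), with 0 symbols changed.

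Signals were floored at 101.3 and log2 ratios taken without recentring (Python 3.11.15, pandas 2.3.3, numpy 2.4.6). Genes were counted at 1.5-fold and at 2-fold. The rule named the 10 genes, up to 4 genes of each of 19 lists with the largest ratios, genes behind counts of 3 or fewer, and the 5 nearest profiles. Tpx2, Bora, Wee1, Plk2, Top2b, Pcnt, Mybl2, the NF-Y genes, Ncaph2, Nifk, Cdkn1c and single markers under 1.5-fold were added after their values were seen. The 10 genes and the lists were chosen with earlier results of these data known. Of 218 listed names, 206 were found on the array. The ratio computation was checked on simulated arrays with planted changes. The alternatives were other normalizations, floors, probe set rules and a 2-fold threshold. The number of arrays limits the precision.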

Additional observations from a re-analysis of the deposited data

How the results depend on the processing

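No paired analysis was possible because each group has 1 array, and for the same reason no replicate could be left out. Over the alternatives, each of 84 log2 ratios of the 10 genes in TA and of 86 in heart stayed below 0, and of 86 between the wild-type tissues 70 were below and 16 above. These counts include repeats, because the set that stood for each of the 10 genes reached the floor on all 4 arrays. A floor at the 25th percentile, no floor and the brightest set in the arrays compared gave the main values again. For genes with 1 measured probe set, the median over sets could not differ either. In the knockout comparisons a higher floor cannot reverse a sign. All 15 measured sets were lower in the knockout in each tissue, so the choice of sets could not reverse one either. Recentring moved the smallest deficit, Plk1 in TA, only from -0.24 to -0.23. The counts of signs in these comparisons are thus for the most part no test. The median log2 ratio ran from -1.17 to -0.96 in TA, from -1.49 to -1.28 in heart and from -0.46 to -0.24 for TA over heart, and the difference between the tissues from 0.21 to 0.30. With the floor at the 75th percentile (471.5), 5 of 6 measured genes were 1.5-fold lower in knockout TA, 6 of 8 in knockout heart and 2 of 8 in wild-type TA against heart. Without probe sets with the suffixes _x_, _s_ and _a_, the counts were 5 of 8 in TA and 2 of 8 between the wild-type tissues. Cdc20 in knockout TA then had a log2 ratio of -0.56. Nek2 had -0.44 or lower, since its knockout TA signal of 78.4 was raised to the floor. Whether Nek2 passes 1.5-fold on that set is therefore not known. With the 75th percentile floor and without those suffixes fewer genes are measured, by construction. At 2-fold, 2 genes were lower in wild-type TA than in heart. At that threshold 9 genes were lower in knockout TA in the main setting, and other settings were not counted. There Plk4 had log2 ratios of -1.002 in the main setting, -0.994 after recentring and -0.985 after quantile normalization over all 4 arrays. With the median over probe sets, Plk4 had -0.92, Cdc20 -0.87 and Nek2 -0.80 or lower, so the count of 9 depends on the setting. Depth is not defined for arrays, and signals near the floor, such as those of Plk1, Nek2 and Melk in the knockout pools, limit those ratios.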

Other observations

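Gmnn, the geminin gene, had the widest gap between the wild-type tissues among the related genes of the anaphase-promoting complex list, with 374.1 in TA and 1983.9 in heart (5.30-fold lower in TA). The kinase inhibitor gene Cdkn1c went the other way, with 13026.6 in wild-type TA and 611.0 in wild-type heart (21.3-fold higher in TA), and its knockout pool was 1.09-fold below wild type in TA and 1.20-fold above it in heart.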
